A study of Mus musculus with 12 samples.

Results

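The livers of female mice given low-dose cadmium (LDC) were compared with those of females given water, on 6 of the 12 arrays of the series. The 6 arrays were those whose labels give the gender as female, 3 with cadmium chloride at 100 nM in the water and 3 with water alone, and every array so labelled was used. The other 6 arrays hold male mice, and they enter here in the shared estimate of the spread and where an effect is set against the male one. The animals were C57BL/6J mice. The dams of the LDC females drank the cadmium solution from 1 week before copulation, and their daughters went on drinking it until 30 weeks of age, when liver RNA was taken. Control females and their dams had water on the same schedule, and offspring were housed several to a cage after weaning. The labels call the arrays biological replicates. No source used here names the litters or the cages of these mice, and the p-values treat the mice as independent.

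The liver takes up a large share of the cadmium that enters the body. There the metal is bound by metallothioneins, small cysteine-rich proteins that also buffer zinc and copper and whose genes respond to metals, glucocorticoids and inflammatory signals. The liver also makes most plasma proteins, which fold in the endoplasmic reticulum with the help of chaperones, and it disposes of ammonia, drugs, bile acids and cholesterol.

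Values are MAS 5.0 signals, a measure of brightness on a linear scale, with 1 value per probe set and array. They are not per length, so levels were not compared between genes. Differences are log2 fold changes, LDC minus control. The median signal of the 6 arrays ran from 95.1 to 101.5 in control and from 97.6 to 100.6 in LDC females. The 3 to 5 prime signal ratio of actin ran from 1.97 to 2.21 in control and from 1.64 to 1.98 in LDC females. That of Gapdh ran from 0.742 to 0.794 and from 0.729 to 0.788. The mean correlation of an array with its own group was 0.921 to 0.926 in control and 0.931 to 0.937 in LDC females. Its exact permutation p was 0.1, the lowest that 3 against 3 arrays can reach. Xist, the RNA of the inactive X chromosome, stood between 16258 and 18731 on the 6 arrays and averaged 105 and 103 in control and LDC males, and the Y-linked gene Eif2s3y stood between 1.02 and 9.73. The 11 hepatocyte markers measured had a median log2 change of -0.01 and a mean log2 level of 14.95 to 15.12 in control and 14.98 to 15.13 in LDC females. The correlation of control female 2 across the probe sets tested was 0.931 to 0.941 with the LDC females and 0.922 and 0.930 with control females 1 and 3, and counts above 0 that moved by over 1.5 times without it are given beside the result.

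Of 27022 probe sets tested, 33 changed in LDC females at an adjusted p under 0.05, which is 0.122% of them. They fell more often than they rose, with 26 lower and 7 higher. The 33 name 25 genes, of which 19 fell and 6 rose. Igha was called through 2 probe sets and each of the other genes through 1. Where more were tested, the rest did not pass, as for Nfix (4 tested), Dyrk2 (3), Ighm (8) and Mt1 (2). A further 3 of the probe sets name several genes and 4 name none. With the 6 female arrays alone, 6 of the 25 genes passed (Mt1, Mt2, Slc41a2, Serpina7, S100a8 and Igkv8-30), and without a trend in the prior 7 did (Mt1, Mt2, Slc41a2, A4gnt, Rhbdd2, S100a8 and Igk). Of the 25 genes, 10 are expressed by neutrophils or by B and plasma cells, and 15 are others. For each of the 33 the groups did not overlap, and this held for 13.9% of all probe sets tested. Without control female 2 the count was 106 (51 rose and 55 fell). It was 15 without LDC female 3 (0 rose), 19 without LDC female 2 (1 rose), 21 without control male 2 (1 rose), whose array bears on the shared estimate of the spread, and 28 without LDC female 1 (2 rose). At the thresholds of the study (an unadjusted p under 0.05 and a difference of 2-fold or more), applied here to limma's p, 436 genes were counted, or 3.4% of the 12820 tested, with 212 higher and 224 lower in LDC females. An equal-variance t-test on the log2 signals of the 6 female arrays gave 208 such genes in place of limma's 436. The study names no test for its arrays. Without control female 2 limma's count was 741.

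Among the 15 genes outside the immune set, the metallothioneins fell furthest. Mt2 measured 13375, 10142 and 16758 in control females 1 to 3 and 474, 774 and 936 in LDC females 1 to 3. All 3 LDC arrays were far below the lowest control. The log2 fold change was -4.23 ± 0.33 (SE, adjusted p = 3.15e-05). Mt1 measured 22809.9, 16851 and 27706 in control and 3227, 3593 and 4408 in LDC females, with a log2 change of -2.57 ± 0.24 (SE, adjusted p = 0.00015). The groups did not overlap for either gene, and control female 2 was the lowest control in both. Both calls passed in all 12 fits that left out 1 array. In males the values went the other way, at 1.30 (adjusted p = 0.153) for Mt2 and 0.98 (adjusted p = 0.133) for Mt1, which did not pass. The difference between the effects, male minus female, did pass, at 5.53 (adjusted p = 0.000133) and 3.55 (adjusted p = 0.000203). Such differences passed for 48 probe sets, 0.178% of those tested. The count was 78 without control female 2 and 10 without a trend in the prior.

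The promoters of this pair are shown because metallothionein genes are regulated by metals through them. The windows reach from 250 bases before to 50 after the RefSeq start of the gene (GRCm38.p6), at chr8:94178839-94179138, plus strand, for Mt1 and chr8:94172368-94172667, plus strand, for Mt2. Capitals mark the core of the metal response element, to which the zinc-sensing factor MTF-1 binds, searched on both strands as TGCACNC or TGCGCNC. No match overlapped another in these windows.
Mt1: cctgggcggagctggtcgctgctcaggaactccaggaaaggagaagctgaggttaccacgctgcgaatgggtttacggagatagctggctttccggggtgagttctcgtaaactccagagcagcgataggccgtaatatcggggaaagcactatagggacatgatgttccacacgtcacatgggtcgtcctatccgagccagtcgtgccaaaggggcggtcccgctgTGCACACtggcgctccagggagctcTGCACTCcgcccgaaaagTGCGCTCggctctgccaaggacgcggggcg
Mt2: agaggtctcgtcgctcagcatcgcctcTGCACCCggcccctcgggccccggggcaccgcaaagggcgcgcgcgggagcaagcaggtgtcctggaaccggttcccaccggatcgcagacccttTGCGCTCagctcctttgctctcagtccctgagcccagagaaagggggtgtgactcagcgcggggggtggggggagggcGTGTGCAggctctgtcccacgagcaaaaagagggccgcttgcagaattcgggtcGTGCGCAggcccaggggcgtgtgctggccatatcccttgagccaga
The Mt1 window held 3 matches, all on the strand of the gene, and the Mt2 window 4, of which 2 were on the opposite strand. At least 1 match was found in 25.7% and at least 3 in 1.97% of the 32851 mouse promoter windows. In the metal list, 7 of 12 members with a promoter in the table held at least 1 match (Atp7b, Mt1, Mt2, Slc30a1, Slc30a10, Slc39a5 and Slc39a8). A match describes the sequence and was not measured on the arrays.

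**Figure D1:**
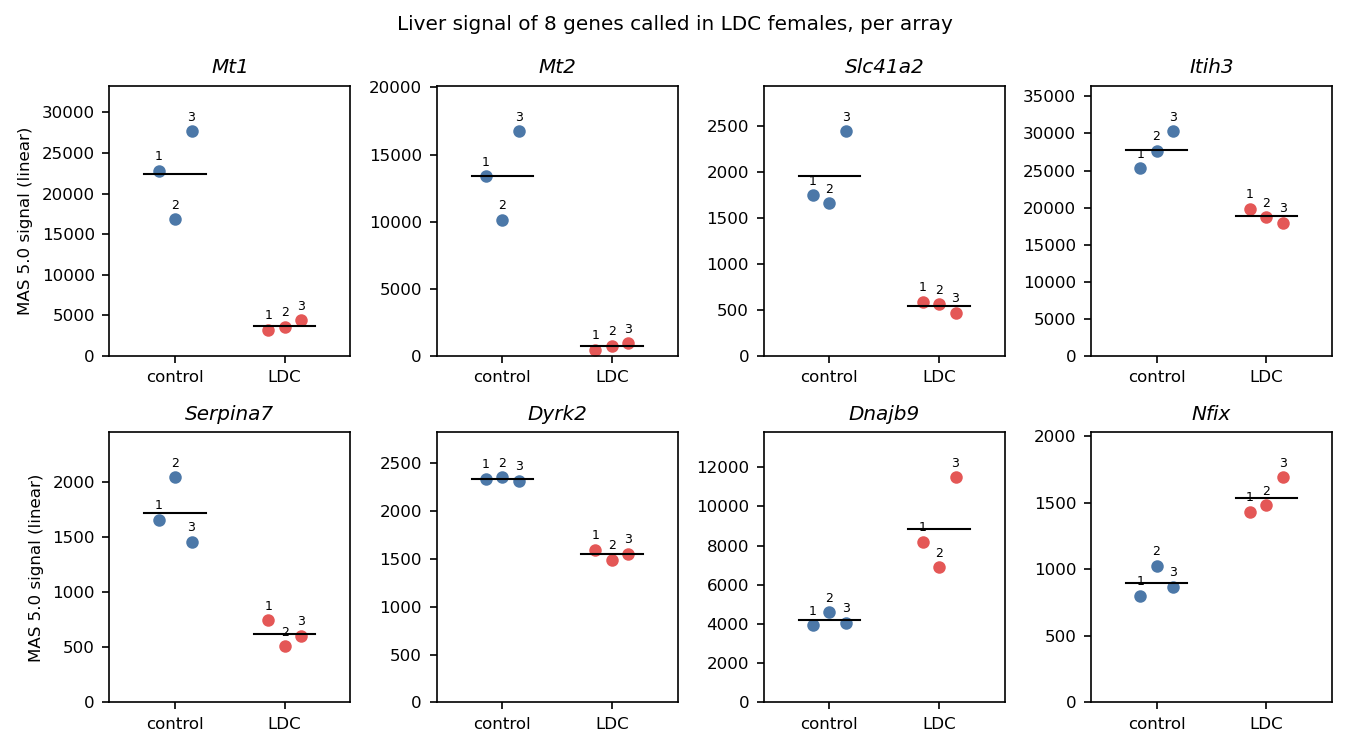
MAS 5.0 signal on a linear scale (y axis) in the 3 control and 3 LDC females (x axis) for 8 genes that passed the adjusted test. Points are arrays with their replicate number and lines are means. The groups do not overlap in any panel, and Mt2 fell from between 10142 and 16758 to between 474 and 936.

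The values of other metal-handling genes were smaller. Of 14 measured members of the metal list, Mt1 and Mt2 fell and 12 did not pass. Slc39a14, an importer of zinc, iron and manganese, measured 3889, 4865 and 4865 in control and 3119, 3366 and 3210.3 in LDC females, a log2 change of -0.48 (adjusted p = 0.201) with no overlap. Ceruloplasmin (Cp), the copper-carrying ferroxidase of plasma, stood at -0.25 (adjusted p = 0.273), also with no overlap. The zinc exporter gene Slc30a1, another target of MTF-1, stood at -0.77 (adjusted p = 0.393), with control female 2 inside the LDC range. The median over the list was -0.22, against 0.01 over all probe sets tested.

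Slc41a2, which encodes a transporter of magnesium, fell in LDC females. Its signals were 1749, 1662 and 2448 in control and 589, 564 and 468 in LDC females, so that the highest LDC array lay well under the lowest control. The log2 fold change was -1.84 ± 0.21 (SE, adjusted p = 0.00105), and the call passed in all 12 fits that left out 1 array. In males it stood at -0.42 (adjusted p = 0.525), and the difference between the sexes did not pass (1.42, adjusted p = 0.0838). The related gene Slc41a3 measured 254, 216 and 325 in control and 157, 119 and 193 in LDC females, at -0.77 (adjusted p = 0.414). Magt1, linked to magnesium uptake and to protein glycosylation, lay the other way, at 0.38 (adjusted p = 0.242). Slc41a3 was at an unadjusted p under 0.05 except without LDC female 2 or control female 3. No other member of the 17 measured in the ion transport list had an unadjusted p under 0.05, and the list's median was -0.02.

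Several secreted proteins of the liver were lower in LDC females. Itih3, a heavy chain of the inter-alpha-trypsin inhibitors that stabilise the extracellular matrix, measured 25278, 27660.1 and 30329 in control and 19864, 18727 and 17950.0 in LDC females. The change was small beside that of the metallothioneins but larger than the spread within the groups, with a log2 change of -0.56 ± 0.09 (SE, adjusted p = 0.0282). Serpina7, the thyroxine-binding globulin of plasma, measured 1657, 2041 and 1458 in control and 745, 509.7 and 606 in LDC females, and fell by 1.47 on the log2 scale (SE 0.24, adjusted p = 0.0248). For Slpi, a secreted inhibitor of neutrophil proteases made by many epithelia, the signals were 945, 1167 and 1249 in control and 499, 204 and 248 in LDC females and the log2 fold change was -1.92 ± 0.33 (SE, adjusted p = 0.036). The groups overlapped for none of the 3 genes. These calls depended on single arrays. The call of Itih3 ended without any 1 of LDC females 1, 2 and 3, control female 3, LDC male 3 and control male 2 (highest adjusted p = 0.18), that of Serpina7 without any 1 of LDC females 2 and 3, control female 1 and LDC male 3 (highest adjusted p = 0.154), and that of Slpi without any 1 of LDC females 2 and 3, control females 1, 2 and 3, LDC males 2 and 3 and control male 2 (highest adjusted p = 0.218).

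Acute phase genes, which the liver induces in inflammation, lay lower as a list. Of 19 measured, 18 had a log2 fold change below 0 and 12 were lower at an unadjusted p under 0.05, against 5.48% of all genes tested, while 0 were higher, against 4.45%. None passed the adjusted test. The list's median was -0.59 in females and -0.03 in males. Lcn2, an iron-scavenging protein of liver and neutrophils, measured 10656, 2548 and 15752 in control and 1883, 1145 and 609 in LDC females, with a log2 change of -2.78 (adjusted p = 0.0966). Control female 2 lay nearest to the LDC arrays. Apcs, which encodes serum amyloid P, measured 12132, 15495 and 24320.5 in control and 9420.2, 10396 and 9046 in LDC females, at -0.79 (adjusted p = 0.144). Orm2, an orosomucoid, stood at -1.90 (adjusted p = 0.147) with control female 2 inside the LDC range, and Lbp, the plasma protein that binds bacterial lipopolysaccharide, at -0.59 (adjusted p = 0.157). The list's mean log2 level was 12.28 to 13.40 in control and 12.06 to 12.27 in LDC females, where the lowest control and the highest LDC array all but met. Without control female 3 the number lower was 9, and without control female 2 it was 14.

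Complement and coagulation genes lay lower as well, with smaller values. In the list of plasma proteins, 26 of 32 measured members lay below 0, with a median of -0.09. At an unadjusted p under 0.05, 7 were lower and 0 higher, against 5.48% and 4.45% of all genes. Besides Itih3, those lower were C8a, C9, Hc (complement component 5) and C6 of the membrane attack complex, the inhibitor Cfi and factor B (Cfb). C8a measured 10303, 13653 and 18189 in control and 8048, 5968 and 8131 in LDC females (-0.90, adjusted p = 0.0882), and C9 measured 19042, 13561 and 21844 in control and 12132, 11817 and 12280.4 in LDC females (-0.56, adjusted p = 0.162). Neither passed, although the groups did not overlap. Albumin (Alb) differed by less than the spread between arrays, at 44112, 46984 and 53961 in control and 45964, 51293 and 48125 in LDC females. The number of members lower was 4 without control female 3.

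Genes of protein folding in the endoplasmic reticulum lay higher. Dnajb9, a co-chaperone of BiP and a target of the unfolded protein response, measured 3951, 4589 and 4057 in control and 8199, 6908 and 11472 in LDC females. The lowest LDC array was above the highest control, and the gene rose by 1.05 on the log2 scale (SE 0.17, adjusted p = 0.0221). No other member of the list passed. The call ended without any 1 of LDC females 1 and 3 and control females 1 and 3 (highest adjusted p = 0.0806). Of the 22 measured members, 17 lay above 0 and 8 were higher at an unadjusted p under 0.05, against 4.45% of all genes tested, with a median of 0.32 in females and -0.18 in males.

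Hyou1, a chaperone of the endoplasmic reticulum, measured 1432, 1424 and 2382 in control and 3118, 2973 and 3443 in LDC females (0.91, adjusted p = 0.137). Manf, a secreted stress protein, measured 4849, 4912 and 8288 in control and 11795, 10743 and 13518 in LDC females (1.04, adjusted p = 0.144). Herpud1, which takes part in the degradation of misfolded proteins, stood at 0.69 (adjusted p = 0.147), Creld2 at 1.44 (adjusted p = 0.257) and Hspa5, which encodes BiP itself, at 0.58 (adjusted p = 0.283). The 3 LDC arrays lay above the 3 controls for each of these 5 genes, and control female 3 was the nearest control for 4 of them. In the whole list 9 of 22 members lay wholly above and 1 wholly below the controls. Of all probe sets tested, 13.9% were apart in either direction. Sesn2, an inhibitor of mTORC1 signalling, and Dnajc3, which restrains the kinase PERK, made up the 8 at 1.53 and 0.35. Asns, asparagine synthetase and a target of the amino acid response, lay the other way at -1.36 (adjusted p = 0.417). Its signals were low, and its unadjusted p was above 0.05 without LDC female 3 or control female 3. They stood at 127, 76.1 and 162 in control and 67.9, 47.1 and 28.9 in LDC females. The male values of Hyou1, Manf and Creld2 were -0.18, -0.31 and -0.15, and none of the 22 members passed the test of the difference between the sexes.

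Some of these genes carry the endoplasmic reticulum stress element in the promoter, a site for the factors that drive the response, and 3 such windows are shown to let a reader see it in members that lay higher. The element was searched on both strands as CCAAT and CCACG with any 9 bases between them, in the same windows and build, and is printed in capitals. The windows are chr2:34771840-34772139, plus strand, for Hspa5, chr15:88819396-88819695, plus strand, for Creld2 and chr14:118937682-118937981, plus strand, for Dnajc3.
Hspa5: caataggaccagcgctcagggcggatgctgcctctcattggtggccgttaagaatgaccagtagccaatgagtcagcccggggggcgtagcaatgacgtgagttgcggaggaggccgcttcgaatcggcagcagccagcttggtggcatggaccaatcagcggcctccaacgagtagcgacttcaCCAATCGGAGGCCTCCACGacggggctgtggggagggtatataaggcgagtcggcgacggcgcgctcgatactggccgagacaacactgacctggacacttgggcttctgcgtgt
Creld2: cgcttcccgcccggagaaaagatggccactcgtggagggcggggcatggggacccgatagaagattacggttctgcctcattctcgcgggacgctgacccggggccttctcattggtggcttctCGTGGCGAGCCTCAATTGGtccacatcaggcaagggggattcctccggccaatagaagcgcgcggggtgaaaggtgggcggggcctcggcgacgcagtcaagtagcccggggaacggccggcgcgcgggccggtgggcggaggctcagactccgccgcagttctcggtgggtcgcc
Dnajc3: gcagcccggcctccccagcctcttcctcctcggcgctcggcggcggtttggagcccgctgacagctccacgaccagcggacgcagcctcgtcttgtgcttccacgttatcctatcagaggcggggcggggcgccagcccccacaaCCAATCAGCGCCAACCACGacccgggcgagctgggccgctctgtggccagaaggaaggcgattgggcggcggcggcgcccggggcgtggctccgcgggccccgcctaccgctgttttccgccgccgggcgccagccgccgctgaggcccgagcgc
Each held 1 match. Of the 20 list members with a promoter in the RefSeq table, 6 held the element (Calr, Creld2, Derl3, Dnajc3, Hsp90b1 and Hspa5), against 0.119% of all windows. The windows of Dnajb9, Herpud1 and Sesn2 held none, and Manf and Hyou1 are not in the table. Of the 6, Creld2, Dnajc3 and Hspa5 were higher at an unadjusted p under 0.05.

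In the list of proteasome and protein quality control genes, 17 of 29 measured members lay above 0, 8 were higher and 0 lower at an unadjusted p under 0.05, against 4.45% and 5.48% of all genes, and none passed the adjusted test. All 8 are among the 11 heat shock proteins and co-chaperones of the list, which keep proteins of the cytosol and mitochondria folded. Of these 11, 10 lay above 0, and Hspa1a stood at -0.50 (adjusted p = 0.886). The list was divided in this way after its values were seen. Bag3, a co-chaperone of selective autophagy, measured 1662, 1267 and 862 in control and 1921, 2251 and 2410.5 in LDC females (0.84, adjusted p = 0.128). Hspa8, the constitutive HSC70, measured 13432, 12806 and 14699 in control and 16663, 22173 and 22607 in LDC females (0.57, adjusted p = 0.145). The J-domain partners Dnajb1 and Dnaja1 stood at 0.64 (adjusted p = 0.144) and 0.51 (adjusted p = 0.148). Hsph1 reached 1.02, Hspa1b 0.77, Hsp90aa1 0.50 and the mitochondrial Hspe1 0.26. The groups overlapped for Hspa1b and for none of the other 7. In the whole list 8 of 29 members lay wholly above and 0 wholly below the controls, against 13.9% of all probe sets apart in either direction. The 18 proteasome genes of this list, of which 7 lay above 0, all had an unadjusted p above 0.05. The median of the list was 0.10 in females and -0.20 in males.

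**Figure D2:**
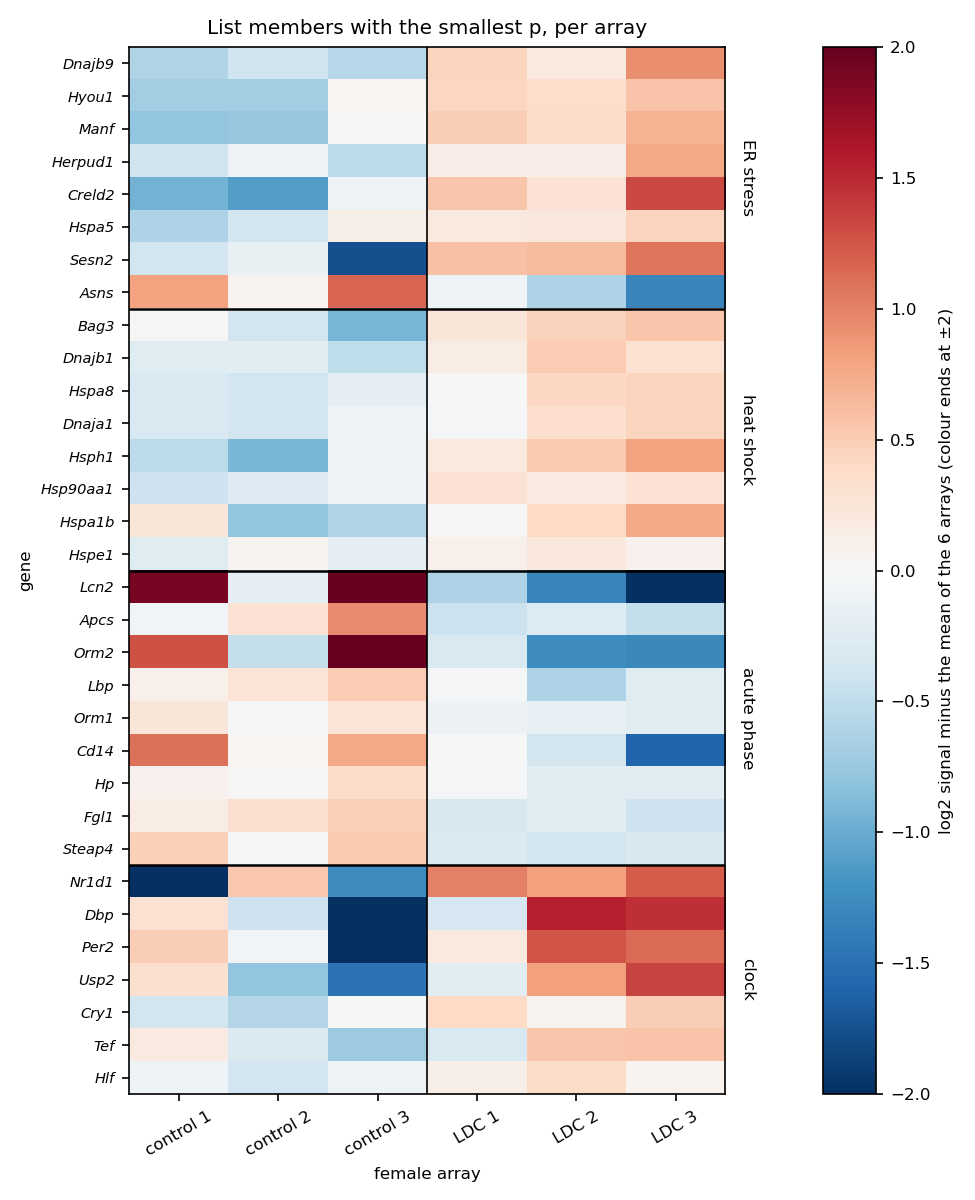
Log2 signal on each female array (x axis) minus the mean of the 6 arrays, as colour, for the members with the smallest p in 4 lists (y axis, blocks named at the right). Members were picked for their p, so the colours describe them and test nothing. The endoplasmic reticulum and heat shock blocks lie higher in LDC females except Asns, the acute phase block lies lower in LDC females, and the clock block differs among arrays of 1 group.

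Further genes that passed have varied roles. Nfix, a transcription factor of the nuclear factor I family, measured 803, 1026 and 871 in control and 1434, 1483 and 1690.4 in LDC females and rose by 0.78 on the log2 scale (SE 0.13, adjusted p = 0.0311). Its male means were 1417 in control and 1604 in LDC mice, so that the control females lay below both. Palld, which encodes the actin-organising protein palladin, measured 1259, 1278 and 1199 in control and 1994, 2019.6 and 2289.6 in LDC females and rose by 0.75 (adjusted p = 0.0353), with 0.89 (adjusted p = 0.0554) for the brightest one of the gene. Dyrk2, a protein kinase, fell from 2339.7, 2353 and 2319 to 1597, 1492 and 1555. Its control arrays were nearly equal, and the log2 change of -0.60 passed (adjusted p = 0.0276). Enpp3, an enzyme of the cell surface that splits extracellular nucleotides, measured 2555, 1717 and 2363 in control and 1264, 1259.9 and 1256 in LDC females and fell by 0.79 (adjusted p = 0.0353), whereas its brightest probe set stood at -0.76 (adjusted p = 0.0886). Meiob, a protein of meiotic recombination, measured 649, 548 and 762 in control and 296, 277 and 329 in LDC females and fell by 1.11 (adjusted p = 0.036). Its male means were 285 in control and 297 in LDC mice, so that the control females lay above both. The call of Nfix ended without any 1 of LDC females 1, 2 and 3, control females 1 and 3, LDC males 1 and 3 and control male 2 (highest adjusted p = 0.21). That of Palld ended without any 1 of LDC females 1, 2 and 3, control females 1 and 3, LDC male 1 and control male 2 (highest adjusted p = 0.224). The call of Dyrk2 ended without any 1 of LDC females 1, 2 and 3, control females 1 and 3, LDC male 3 and control male 2 (highest adjusted p = 0.154). That of Enpp3 ended without any 1 of LDC females 1, 2 and 3, control females 1 and 3, LDC males 1, 2 and 3 and control males 2 and 3 (highest adjusted p = 0.171). The call of Meiob ended without any 1 of LDC females 1, 2 and 3, control females 1 and 3, LDC males 1, 2 and 3 and control male 2 (highest adjusted p = 0.204).

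For another 3 genes that passed, as for Nfix, it was the control females that stood apart, below the males of both groups. A4gnt, a glycosyltransferase of mucin-type sugars, measured 17.1, 21.3 and 15.6 in control and 117, 111 and 109 in LDC females (2.66, adjusted p = 0.0353). The controls lay under 48.6, the signal below which probe sets were left out on their mean, where signals are not well measured. The male means were 130.0 in control and 128 in LDC mice, close to the LDC females. Rhbdd2, a rhomboid family member, measured 46.5, 72.7 and 37.7 in control and 197, 185 and 210.1 in LDC females (1.97, adjusted p = 0.0236), with male means of 252 and 235. Control females 1 and 3 lay under the same 48.6 for Rhbdd2. Its brightest probe set did not follow, at -0.32 (adjusted p = 0.799). Ddx6, an RNA helicase of mRNA storage and decay, measured 268, 349 and 318 in control and 657, 697 and 799 in LDC females (1.21, adjusted p = 0.0468), with male means of 684 and 854, and 0.28 (adjusted p = 0.544) for the brightest one of the gene. A4gnt no longer passed without any 1 of LDC females 1, 2 and 3, control female 3, LDC males 1, 2 and 3 and control males 1, 2 and 3 (highest adjusted p = 0.18). Its call also ended with log2(signal + 32), with no filter and with the replicate number as a block. Rhbdd2 no longer passed without any 1 of LDC females 1, 2 and 3, control female 3 and control male 2 (highest adjusted p = 0.131). Ddx6 no longer passed without any 1 of LDC females 1, 2 and 3, control females 1 and 3, LDC male 3 and control male 2 (highest adjusted p = 0.274).

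**Figure D3:**
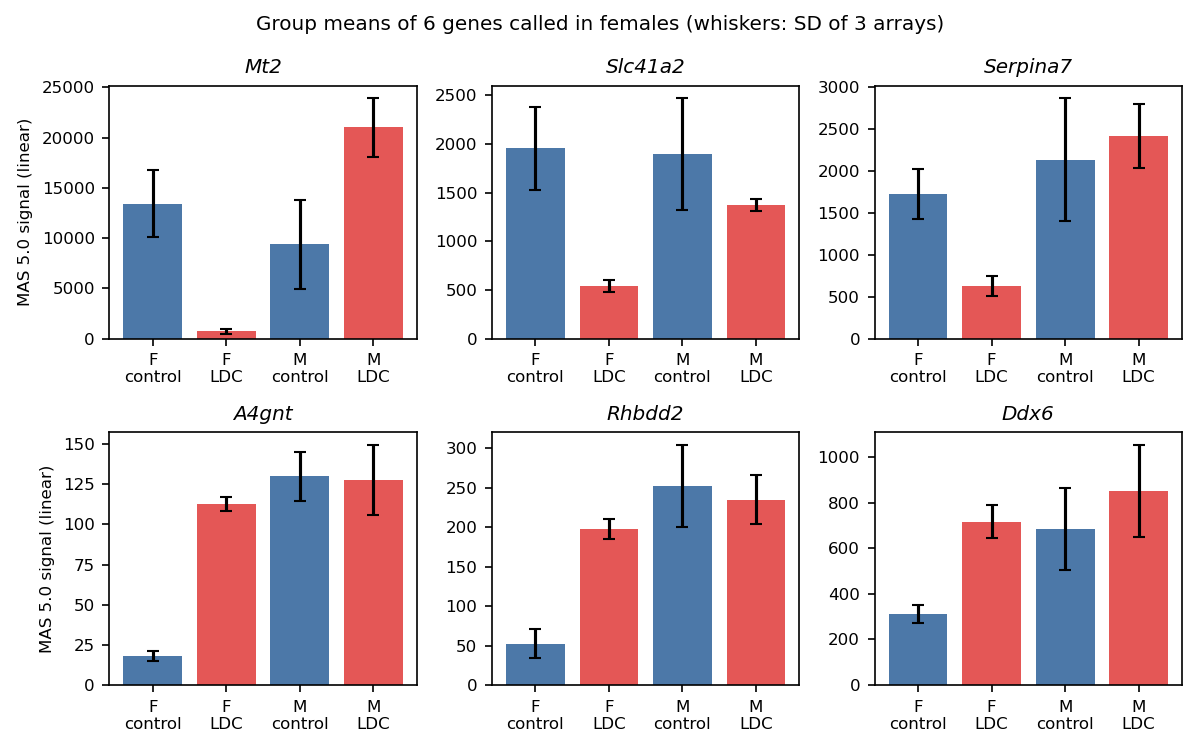
Mean MAS 5.0 signal on a linear scale (y axis) in the 4 groups of 3 arrays (x axis, F and M for the gender labels) for 6 genes called in females, with the SD as whiskers. LDC females stand below the other 3 groups for Mt2, Slc41a2 and Serpina7, and control females stand below the other 3 for A4gnt, Rhbdd2 and Ddx6.

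Genes of neutrophils, B cells and plasma cells made up 10 of the 25. In bulk liver RNA, fewer such cells and less of the RNA per cell cannot be told apart. Of 9 neutrophil markers measured, 9 lay below 0 and 4 fell (S100a8, S100a9, Ngp and Prtn3), with a median of -1.75 and a mean log2 level of 8.37 to 9.33 in control and 6.56 to 7.27 in LDC females. The calls of S100a8 and S100a9 passed in all 12 fits that left out 1 array, that of Ngp ended without any 1 of LDC females 1, 2 and 3, control females 1 and 3, LDC males 1, 2 and 3 and control male 2 (highest adjusted p = 0.154) and that of Prtn3 without any 1 of LDC females 2 and 3 and control female 3 (highest adjusted p = 0.122). S100a8 measured 3284, 1688 and 2677 in control and 260.1, 357 and 218 in LDC females, a log2 change of -3.17 (adjusted p = 2.06e-05). Of 10 B and plasma cell markers, 8 lay below 0 and 2 above, and 4 fell (Ighm, Igk, Iglv1 and Jchain). The median was -0.72, and the level was 8.85 to 9.54 in control and 7.92 to 8.24 in LDC females. The 4 called in each of these 2 lists stand against 0.122% of all probe sets tested. Igha and Igkv8-30 complete the 10 immune genes. The call of Iglv1 ended without any 1 of LDC females 1 and 3 and control female 3 (highest adjusted p = 0.0747) and that of Igha without any 1 of LDC females 2 and 3 and control female 3 (highest adjusted p = 0.0892), and Ighm, Igk, Igkv8-30 and Jchain passed in all 12 fits. Macrophage and Kupffer cell markers lay below 0 for 15 of 15, at a median of -0.85, but with overlapping levels of 10.09 to 11.68 in control and 9.07 to 11.09 in LDC females, and 0 passed. Of these 15, 4 were lower at an unadjusted p under 0.05 on all arrays, against 5.48% of all genes. The number lower was 0 without LDC female 3 or control female 1, 2 without control female 3 and 7 without LDC female 2. It was 11 without control female 2 and 12 without LDC female 1. Whether these cells have a part in the lower acute phase genes or in Slpi was not tested.

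Drug-metabolising enzymes lay slightly higher in LDC females, and none passed the adjusted test. Of 28 cytochrome P450 genes and their regulators, 25 lay above 0 and 6 were higher at an unadjusted p under 0.05, against 4.45% of all genes, with a median of 0.16. Cyp2f2, a P450 of periportal hepatocytes, measured 18188, 20496 and 21191 in control and 24034, 26699 and 25398 in LDC females (0.35, adjusted p = 0.144). Cyp1a2, the main caffeine-oxidising enzyme of pericentral hepatocytes, measured 17249, 17902 and 14462 in control and 19728, 25589 and 23802 in LDC females (0.48, adjusted p = 0.148). The groups did not overlap for either gene. Cyp3a25 and Cyp2d22 stood at 0.32 and 0.44, and Cyp2b10, the classical target of the receptor CAR, at 0.74. Among conjugating enzymes 20 of 23 lay above 0, with a median of 0.18 and 4 higher at an unadjusted p under 0.05, of which the epoxide hydrolase Ephx2 had the smallest p, at 0.30 (adjusted p = 0.281), and the acetyltransferase Nat8 the largest value, at 0.59 (adjusted p = 0.492). That count was 1 without LDC female 3 or control female 3, 2 without LDC female 2 or control female 1 and 8 without LDC female 1.

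Mitochondrial and amino acid genes shared this direction at small values. Of 35 genes of the urea cycle and amino acid breakdown, 31 lay above 0 and 7 were higher at an unadjusted p under 0.05, against 4.45% of all genes, with a median of 0.17. Prodh2, a hydroxyproline dehydrogenase, measured 2239, 3090.4 and 2491 in control and 3557, 3885 and 4185 in LDC females (0.58, adjusted p = 0.117). Tdo2, the first enzyme of tryptophan breakdown, stood at 0.37 (adjusted p = 0.178), and the urea cycle enzyme Otc at 0.28 (adjusted p = 0.305). Of 31 genes of oxidative phosphorylation, 28 lay above 0 and 7 were higher, against the same share, with a median of 0.13. Uqcrc1 of complex III, Sdhb of complex II and Ndufv1 of complex I stood at 0.37, 0.36 and 0.29, with the LDC arrays above the controls for each. Among the 31 genes 8 lay wholly above and 1 wholly below the controls, against 13.9% of all probe sets apart in either direction. No member of either list passed the adjusted test. Single arrays moved both counts, which were 4 without LDC female 2 or 3 or control female 1 or 3, 13 without LDC female 1 and 21 without control female 2 for the urea cycle list, and 4 without LDC female 3 and 14 without control female 2 for oxidative phosphorylation.

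Fatty acid oxidation followed with 25 of 30 members above 0, 6 higher and 1 lower at an unadjusted p under 0.05, against 4.45% and 5.48% of all genes, and a median of 0.16. The difference between the sexes passed for 2 of the 30 members, against 0.178% of all probe sets tested. The enoyl-CoA isomerase Eci1 measured 4076, 5888 and 4745 in control and 6737, 6196 and 6380.2 in LDC females (0.41, adjusted p = 0.29), and the peroxisomal thiolase Acaa1b stood at 0.37 (adjusted p = 0.357). In this list the number higher was 3 without control female 1, and the number lower was 0 without LDC female 1 or 2 or control female 2 or 3 and 4 without control female 1. Cidec, a protein of lipid droplets, had a log2 change of 2.07, but its signals were near or under the filter, at 5.45, 37.6 and 7.94 in control and 57.7, 55.3 and 38.1 in LDC females. In the list of one-carbon and sulfur metabolism 20 of 25 lay above 0, with a median of 0.16. At an unadjusted p under 0.05, 4 were higher, against 4.45% of all genes. That count was 0 without LDC female 2 or 3, 1 without control female 3, 2 without control female 1 and 10 without control female 2. Among periportal genes 5 of 20 were higher, against the same 4.45%, among them Cyp2f2 and the insulin-like growth factor binding protein Igfbp2. Bile acid genes had 5 of 25 higher, against the same share, with the exporter Abcc3 at 0.43 (adjusted p = 0.266). By contrast, Cyp7a1, the rate-limiting enzyme of bile acid synthesis, measured 5497, 4564 and 12398 in control and 2732, 3719 and 7718 in LDC females with overlap (-0.66, adjusted p = 0.654). The bile acid count was 2 without LDC female 2 or control female 1 or 3 and 3 without LDC female 3, and the periportal count was 3 without LDC female 2 and 8 without control female 2. The difference between the sexes passed for 1 member of the bile acid list and 1 of the one-carbon and sulfur list.

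Cholesterol synthesis lay the other way. Of 21 members measured, 16 were below 0, 3 were lower and 0 higher at an unadjusted p under 0.05, against 5.48% and 4.45% of all genes, and the median was -0.25 in females and -0.04 in males. Cyp51, the lanosterol demethylase, measured 7453, 7637 and 8729 in control and 5519, 5079.8 and 6136 in LDC females (-0.51, adjusted p = 0.214). Dhcr7, which makes cholesterol from its last precursor, measured 2702, 3048 and 2859 in control and 1977, 2222 and 1561 in LDC females (-0.59, adjusted p = 0.264), and Idi1 of the isoprenoid steps stood at -0.30 (adjusted p = 0.504). The groups were apart for Cyp51 and Dhcr7, and for Idi1 they overlapped. The number lower was 6 without control female 1. Fatty acid synthesis had a median of 0.03 and 1 of 20 members higher at an unadjusted p under 0.05, near the 4.45% of all genes. It was the lipogenic factor Thrsp at 0.84 (adjusted p = 0.523). The number higher was 0 without LDC female 2 or control female 3, 2 without LDC female 1 and 6 without control female 1. Among genes of triglycerides and lipid droplets, 3 of 28 were higher and 2 lower, against 4.45% and 5.48% of all genes. The number higher was 5 without LDC female 1, and the number lower was 1 without LDC female 1, 2 or 3 or control female 2. Fabp5, a fatty acid carrier also found in macrophages, measured 22253, 9835 and 18309.8 in control and 7725, 6131 and 3784 in LDC females (-1.49, adjusted p = 0.0798). The lipoprotein list had 1 of 23 lower, a share near the 5.48% of all genes. It was the receptor Lrp1 at -0.25 (adjusted p = 0.397), and the number lower was 2 without LDC female 1 or control female 1. Sugar metabolism was divided, with 3 of 24 higher and 4 lower, against 4.45% and 5.48% of all genes. Among them were lactate dehydrogenase Ldha at -0.33 (adjusted p = 0.323) and the glucose 6-phosphate transporter Slc37a4 at 0.41 (adjusted p = 0.469). For sugar metabolism the number higher was 0 without LDC female 3 or control female 3 and 1 without LDC female 1 or 2, and the number lower was 2 without LDC female 3.

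**Figure D4:**
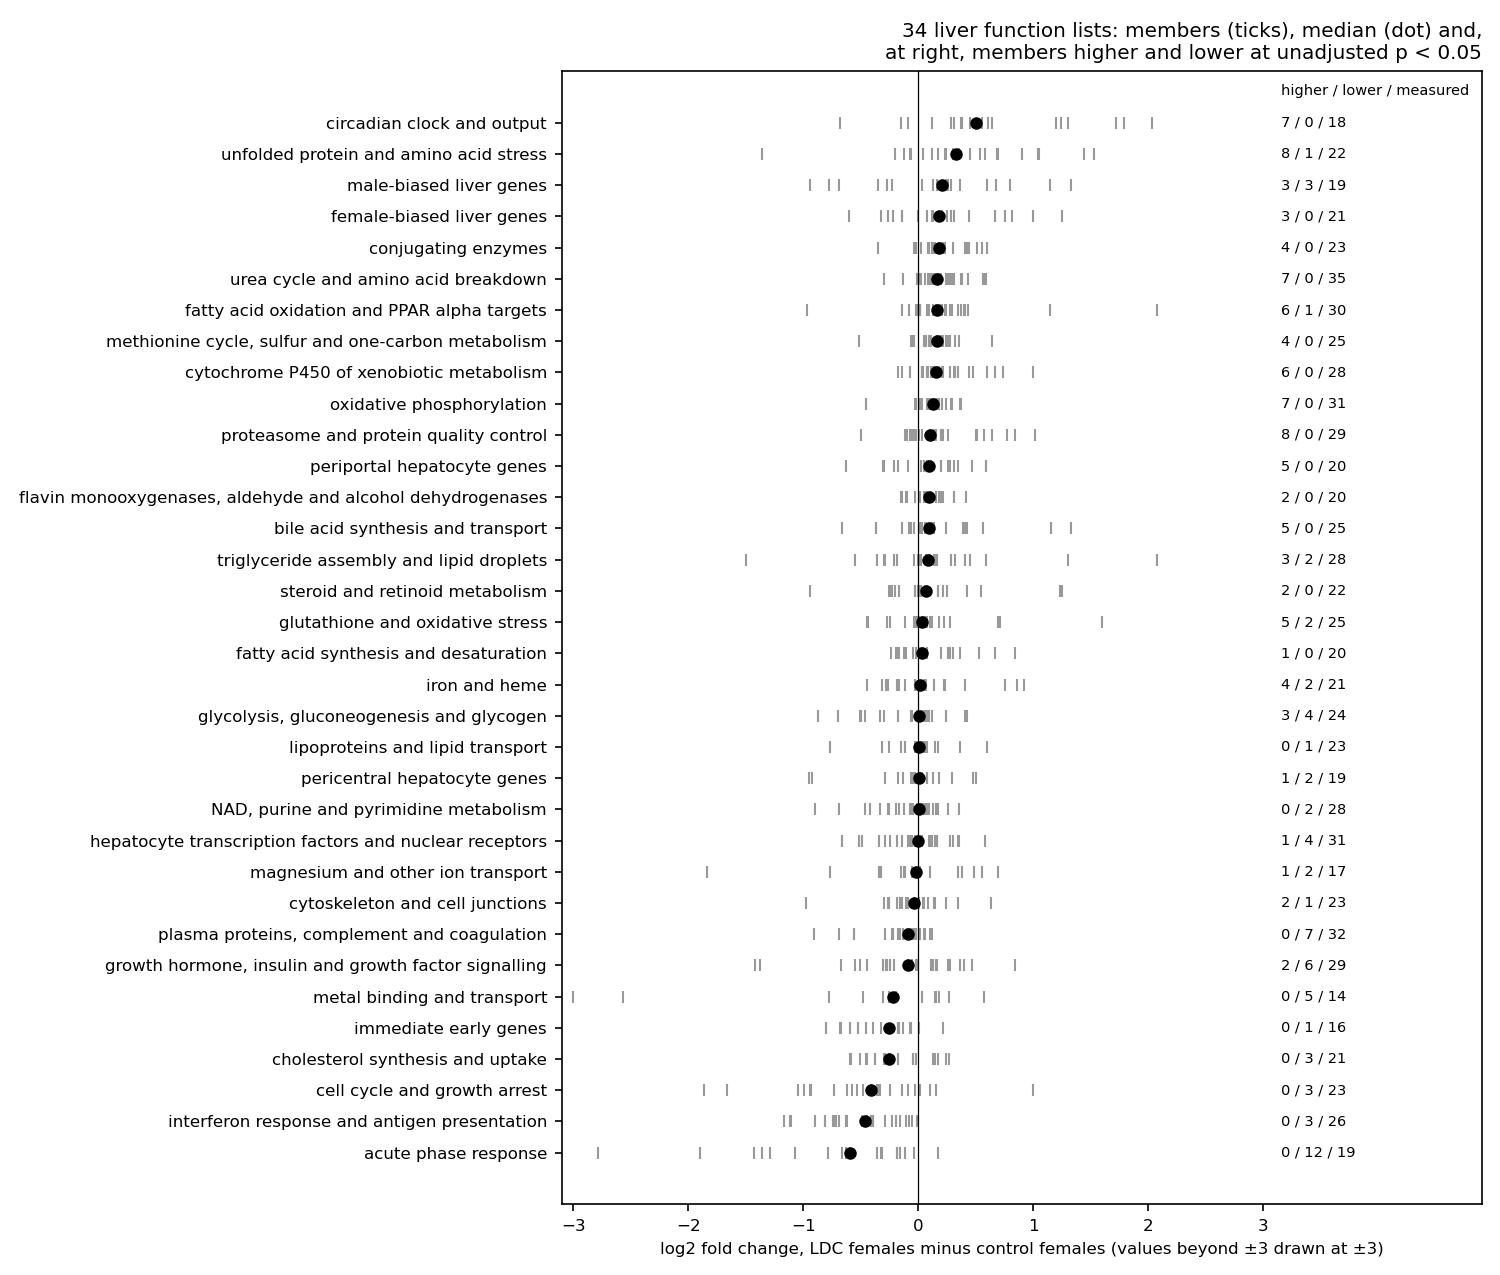
Log2 fold change of LDC against control females (x axis) for each measured member (tick) and the median (dot) of 34 liver function lists (y axis), with the members higher and lower at an unadjusted p under 0.05 and the number measured at the right. The acute phase list has the lowest median, -0.59, and the clock list the highest, 0.50.

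Alas1, the rate-limiting enzyme of heme synthesis in the liver, measured 8191, 6018 and 8037 in control and 10337, 15474 and 16832 in LDC females, and the groups did not overlap. Its log2 change of 0.92 missed the threshold in females (adjusted p = 0.0666), and the difference from the male effect of -0.39 passed at -1.31 (adjusted p = 0.0494). That difference no longer passed without any 1 of LDC females 2 and 3, control females 1, 2 and 3, LDC males 1, 2 and 3 and control males 2 and 3 (highest adjusted p = 0.149), nor with quantile normalization, without a trend in the prior or with the replicate block. Tfrc, the transferrin receptor, measured 1648, 1120.4 and 1262 in control and 2313, 2504 and 2407 in LDC females (0.86, adjusted p = 0.128). Hamp2, a relative of the iron hormone hepcidin, stood at 0.75 (adjusted p = 0.292). Of 21 members 4 were higher and 2 lower at an unadjusted p under 0.05, against 4.45% and 5.48% of all genes. The median was 0.01, and the number lower was 1 without LDC female 2 or 3 or control female 3. In the glutathione list 5 of 25 were higher and 2 lower, against the same shares of all genes. Gsta2, a glutathione transferase of the oxidative stress response, measured 4238, 3218 and 1059.6 in control and 6886, 7848 and 7445 in LDC females (1.60, adjusted p = 0.132), with control female 3 far below the other controls. In that list the number higher was 2 without control female 3 and 3 without control female 1, and the number lower was 1 without LDC female 1 or 2.

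Cyp17a1, a steroid hydroxylase whose liver signal was 475 and 259 on average in control and LDC males, measured 1324, 1722 and 1262 in control and 2267, 4614 and 3712 in LDC females. All 3 LDC arrays were above the controls, and the log2 change of 1.25 missed the threshold (adjusted p = 0.079). In males it was -0.88, and the difference, male minus female, was -2.13 (adjusted p = 0.0211), which no longer passed without any 1 of LDC females 2 and 3, control female 3, LDC males 1 and 3 and control male 3 (highest adjusted p = 0.0854) or without a trend in the prior. At an unadjusted p under 0.05, 4.45% of all genes were higher and 5.48% lower. Female-biased genes had 3 of 21 higher and 0 lower with a median of 0.18, and male-biased genes 3 of 19 higher and 3 lower with a median of 0.20. Both medians lay above 0, whereas in males they were 0.74 and -0.40. The difference between the sexes passed for 2 female-biased genes, Cyp17a1 among them, and for 0 male-biased genes, against 0.178% of all probe sets tested. Among female-biased genes the number higher was 5 without control female 2, and among male-biased genes the number higher was 1 without LDC female 2 or 3 or control female 1. Mup3, a major urinary protein, stood apart on control female 1, at 11747, 30307 and 44758 in control and 42419, 45334 and 43185 in LDC females.

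Growth factor signalling had 6 of 29 members lower and 2 higher at an unadjusted p under 0.05, against 5.48% and 4.45% of all genes. The median was -0.09. Egfr, the epidermal growth factor receptor, measured 4553, 5594 and 7390.4 in control and 4315, 4187 and 3324 in LDC females (-0.55, adjusted p = 0.247), and Socs2, a feedback inhibitor of growth hormone signalling, measured 4802, 3779 and 9327 in control and 1929, 2699 and 1689 in LDC females (-1.42, adjusted p = 0.48). Foxo1, Insr and Klb, of insulin and FGF21 signalling, stood at -0.28, -0.25 and -0.31, each with LDC arrays below the controls. In the whole list 6 of 29 members lay wholly below and 3 wholly above the controls, against 13.9% of all probe sets apart in either direction. Pik3r1, the regulatory subunit of PI3 kinase, lay at 0.37 (adjusted p = 0.208), and its difference from the male effect passed at -0.81 (adjusted p = 0.0321), but not without any 1 of LDC females 2 and 3, control female 3, LDC males 1, 2 and 3 and control males 2 and 3 (highest adjusted p = 0.12), without a trend in the prior or with the replicate block. The number lower was 2 without control female 2 and 3 without LDC female 1 or 3 or control female 3. Among transcription factors 4 of 31 were lower and 1 higher, against the same shares. Those lower included Cebpd at -0.66 (adjusted p = 0.214) and Foxa3 at -0.67 (adjusted p = 0.289), and Cebpa was higher at 0.30 (adjusted p = 0.29). In that list the number higher was 2 without control female 1 or 2 and 3 without LDC female 1, and the number lower was 2 without control female 2.

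In the cell cycle list 19 of 23 members were below 0, with a median of -0.41 and 3 lower at an unadjusted p under 0.05, against 5.48% of all genes. Cdkn1a, the p21 inhibitor of the cell cycle, measured 188, 176 and 238 in control and 101, 53.1 and 46.1 in LDC females (-1.66, adjusted p = 0.208). Ccne1, cyclin E1, measured 140, 139 and 197 in control and 25.6, 24.5 and 127 in LDC females (-1.86, adjusted p = 0.255). LDC female 3 for Cdkn1a and LDC females 1 and 2 for Ccne1 lay under the filter signal of 48.6, where signals are not well measured. Without control female 2 the number lower was 7. Immediate early genes had 14 of 16 below 0 and 1 lower, a share near that of all genes. It was Klf6 at -0.60 (adjusted p = 0.417), which did not pass the unadjusted threshold without LDC female 2 or control female 1. In the interferon and antigen presentation list 26 of 26 lay below 0, with a median of -0.47 in females and 0.49 in males. Of them 3 were lower at an unadjusted p under 0.05, against 5.48% of all genes. They were the immunoproteasome subunits Psmb9 and Psmb8 and the class II gene H2-Ab1. Control female 1 stood far above the other arrays, as in H2-Ab1 at 6173, 1238 and 1098 in control and 1355, 969 and 632 in LDC females. The count was 6 without LDC female 1, 7 without control female 3 and 16 without control female 2.

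Among markers of liver zones, Axin2 and Tbx3, targets of Wnt signalling around the central vein, measured 419, 414 and 463 and 1277, 1173 and 1783 in control and 204, 206 and 266 and 909, 575 and 745 in LDC females. They stood at -0.95 (adjusted p = 0.173) and -0.93 (adjusted p = 0.177) with no overlap, whereas the pericentral list as a whole had a median of 0.00. Of its 19 members 1 was higher at an unadjusted p under 0.05 (Cyp1a2), near the 4.45% of all genes. Another 2 were lower, against 5.48%. The number higher was 2 without LDC female 1 or control female 2. The tubulins Tuba4a and Tubb4b measured 14956, 15267 and 16353 and 3678, 3017 and 3553 in control and 18929.9, 20938 and 19283 and 5183, 5311 and 5302 in LDC females. Their female values of 0.34 (adjusted p = 0.134) and 0.63 (adjusted p = 0.161) did not pass, and the differences between the sexes did, at -1.16 and -1.54 (adjusted p = 0.000203 and 0.00675). Both passed in all 12 fits that left out 1 array, and without a trend in the prior that of Tubb4b did not. The cytoskeleton list had a median of -0.03, with 2 of 23 higher and 1 lower, against 4.45% and 5.48% of all genes. The number lower was 0 without LDC female 3 or control female 3 and 2 without control female 1. Of 20 flavin monooxygenases and aldehyde and alcohol dehydrogenases 2 were higher, against 4.45% of all genes, with a median of 0.09. Of 28 genes of NAD, purine and pyrimidine metabolism 2 were lower, against 5.48%, with a median of 0.00. In the first the number higher was 0 without LDC female 3 and 1 without LDC female 2 or control female 1 or 3, and in the second the number lower was 0 without control female 2 and 1 without LDC female 2 or 3 or control female 1, while the number higher was 0 on all arrays and 4 without control female 2. In the NAD list the difference between the sexes passed for 1 of the 28 members, against 0.178% of all probe sets tested.

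The clock genes had the highest median, 0.50, and varied widely among arrays of 1 group. Of 18 measured, 7 were higher and 0 lower at an unadjusted p under 0.05, against 4.45% and 5.48% of all genes. None passed the adjusted test. Dbp, an output factor of the clock, measured 1585, 970.4 and 215 in control and 1025, 3778 and 3538 in LDC females. Control female 3 was the lowest and LDC female 1 lay among the controls. Per2, a core repressor, measured 691, 473 and 59.7 in control and 558, 1173 and 1069 in LDC females, and Nr1d1, which encodes REV-ERB alpha, 33.0, 241 and 69.0 and 334, 293 and 384. Cry1, another repressor, was apart between the groups, at 286, 246 and 367 in control and 485, 388 and 516 in LDC females (0.64, adjusted p = 0.494), and the male value was 1.41 (adjusted p = 0.0448). The median of the list in males was 0.48. The number higher was 2 without control female 3, 3 without LDC female 2 or 3 and 4 without control female 2. No source used here gives the hour at which livers were taken, and its part in these values was not tested.

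**Figure D5:**
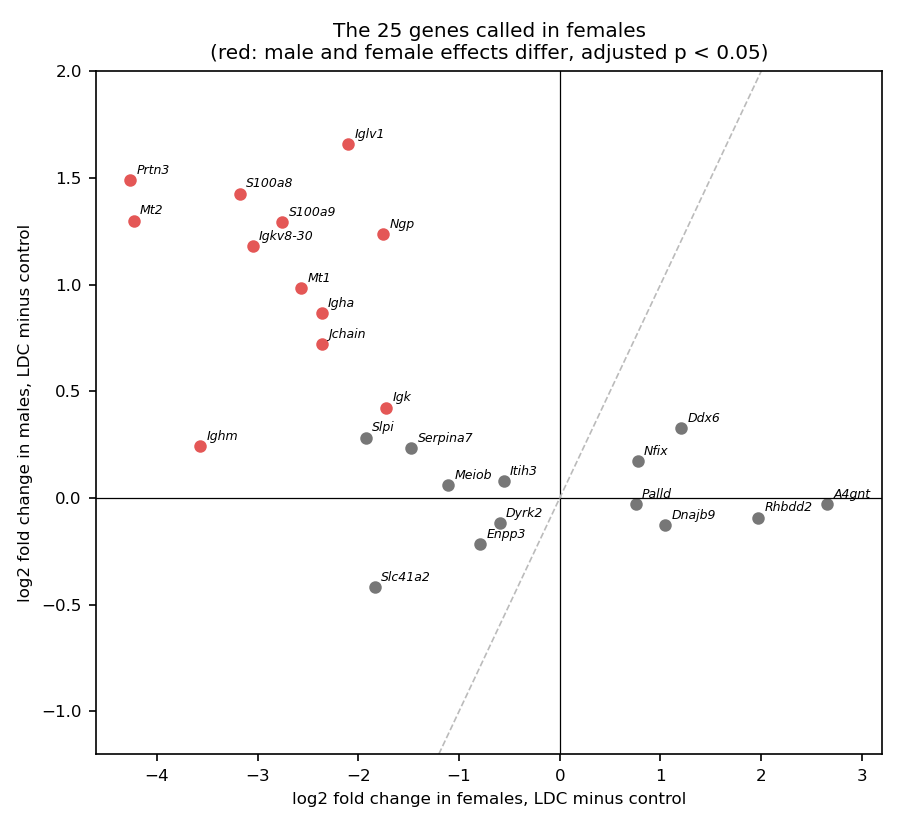
Log2 fold change of LDC against control in females (x axis) and in males (y axis) for the 25 genes called in females, with a dashed line at equal effects. Red points are the 12 genes whose effects differ between the sexes at an adjusted p under 0.05, and they all lie at the upper left, lower in LDC females and above 0 in males.

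The 25 genes were also set beside the male arrays. They were picked on their female effect, which enters the difference between the effects, so a high share of differences is built in. At an unadjusted p under 0.05, 32 of the 33 called probe sets differed between the sexes. At an adjusted p under 0.05 the difference passed for 12 of the 25 genes, against 0.178% of all probe sets tested. These 12 were Mt1, Mt2 and each of the 10 immune genes. The difference of Ighm no longer passed without any 1 of LDC females 1 and 3, control female 3, LDC males 1, 2 and 3 and control males 1, 2 and 3 (highest adjusted p = 0.116), that of Prtn3 without any 1 of LDC females 2 and 3, control female 3, LDC males 1, 2 and 3 and control male 3 (highest adjusted p = 0.0996) and that of Igk without LDC male 3. Without a trend in the prior it passed for 4 of the 12 (Mt1, Mt2, S100a8 and Iglv1). For the other 13, the female value was past the threshold and the difference from males was not, so these genes are not shown to respond otherwise in males. Among them were Dnajb9 (-1.18, adjusted p = 0.0667), Serpina7 (1.71, adjusted p = 0.0663), Itih3 (0.63, adjusted p = 0.0751) and Slc41a2. Of the 25 genes, S100a8 and Iglv1 also passed in males, where both rose, at 1.43 and 1.66 (adjusted p = 0.0178 and 0.0448).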

How the data were processed

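Liver RNA of 12 mice was hybridised to Affymetrix Mouse Genome 430 2.0 arrays, 3 per group, and 45101 probe sets are listed, of which 64 are controls and were left out. The deposited values are signal intensities that the authors made with MAS 5.0 in GeneSpring 12.6.1, one per probe set and array, on a linear scale, and each array has a mean of 500.0 after trimming 2% at either end. MAS 5.0 leaves dim probe sets noisy, and no detection calls were used here. Groups and replicate numbers came from the labels.

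Signals were set to log2 with no further normalisation. Probe sets under the 40th percentile of mean log2 signal (5.60, a signal of 48.6) were left out. limma 3.58.1 in R 4.3.3 fitted the 4 group means over 12 arrays with a trended prior. The contrasts were LDC minus control in females, the same in males, and the difference between them. P-values were adjusted by Benjamini-Hochberg over 27022 probe sets. The fit was tested on simulated data before use. Groups of 3 against 3 arrays cannot reach an exact permutation p under 0.1. The number of arrays limits the precision.

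Probe sets were named through the platform annotation of 2016 and gene identifiers: 34958 have 1 gene, 932 several and 9211 none. A gene was given by its brightest probe set, or by another where it passed through that one alone, and 4 genes that met the 2-fold rule through a dimmer probe set are given by both. Tables were handled in Python 3.11.15 with pandas 2.3.3, and plots were drawn with matplotlib 3.10.9.

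The groups, the 34 lists of liver functions and 12 of cell type markers were chosen with earlier results of these data known. The genes named were those called in females, the 15 higher and 15 lower with the smallest p among those of at least 2-fold with no overlap between groups, up to 4 members of each list, the 10 genes with the smallest p for the difference between the sexes, and Mt1, Mt2, Xist, Alb, Cyp7a1 and Cyp17a1. Further list members, among them Hspa5, Creld2, Dnajc3, Hsph1, Insr and Cry1, were named after their values were seen. Promoter sequences are RefSeq's, and motifs were searched as letters on both strands.

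Alternatives were other filters, normalisations, a pseudocount, female arrays alone, 1 probe set per gene, no trend, array weights, an equal-variance t-test on the female arrays, the replicate number as a block and leaving out each array. The counts of list members without each female array were added after seeing the data.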

Additional observations from a re-analysis of the deposited data

Results flagged for a closer look

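Each result here is a gene whose LDC effect differed between males and females in limma's interaction contrast at an adjusted p under 0.05, and the values are the male minus the female log2 fold change. The metallothioneins differed by 5.53 (Mt2) and 3.55 (Mt1). Neutrophil genes differed by 5.75 (Prtn3), 4.60 (S100a8), 4.05 (S100a9) and 2.99 (Ngp). Immunoglobulin genes differed by 4.23 (Igkv8-30), 3.81 (Ighm), 3.76 (Iglv1), 3.23 and 2.86 (both probe sets of Igha), 3.08 (Jchain) and 2.14 (Igk).

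Over all 27022 probe sets tested, 48 differed, of which 19 were among the 33 called in females. Of the genes picked by the naming rules above, another 7 differed although they were not called in females. Lcn2 differed by 4.41, which did not pass without any 1 of LDC females 2 and 3, control females 1 and 3, LDC males 1, 2 and 3 and control males 1, 2 and 3 (highest adjusted p = 0.142), with quantile normalization or with the replicate block. Alas1, Cyp17a1 and Pik3r1 differed by -1.31, -2.13 and -0.81, and the tubulins Tuba4a and Tubb4b by -1.16 and -1.54. These 5 lay above 0 in females and below 0 in males. Of the 12 fits that left out 1 array, the difference no longer passed in 10 for Alas1, 8 for Pik3r1 and 6 for Cyp17a1, and the tubulins passed in all 12. Alas1 and Pik3r1 did not pass with the replicate block either. Without a trend in the prior, only Tuba4a of these 7 passed. Ctdsp2, a phosphatase of the small C-terminal domain family, differed by 1.08, with -0.45 in females (adjusted p = 0.147) and 0.63 in males (adjusted p = 0.0237).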

How the results depend on the processing

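The count of probe sets called in females, 33, was 11 with the 6 female arrays only, 13 without a trend in the prior and 0 with the equal-variance t-test, which had 1907 at an unadjusted p under 0.05. Leaving out 1 array, it ran from 15 to 106. The 436 genes past the 2-fold criterion became 215 with 1 probe set per gene, 729 and 160 with filters at the 20th and 60th percentile, 282 with log2(signal + 32), 971 with no filter and 208 with the equal-variance t-test, and 387 to 741 leaving out 1 array. The 48 differences between the sexes became 30 with 1 probe set per gene, 10 without a trend, and 22 to 78 leaving out 1 array. The cause was not tested. Of the criterion genes 48.6% were higher in LDC females, against 35.3% with 1 probe set per gene. Leaving out 1 array, this share ran from 32.2% without LDC female 1 to 61.7% without control female 1, so its side of 50% depended on single arrays. Over the probe sets tested, same-numbered control and LDC females did not deviate together (r = 0.06, -0.01 and -0.02), and other pairs ran from -0.08 to 0.08. Whether the numbers pair the mice for some genes was not tested. With the replicate number as a block, 23 probe sets were called, 22 of them among the 33, and the other counts were 451 and 44. The direction of Alb turned, over a range of -0.057 to 0.089 leaving out 1 array, as did that of a probe set of Pid1, over -0.053 to 0.17. Of 4476 values of named genes under the alternatives, 4175 kept direction and side of the threshold, 262 lost the call, 35 gained it and 4 turned. Mt1, Mt2, S100a8 and Slc41a2 lost the call with the equal-variance t-test alone.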

Other observations

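The genes of at least 2-fold with no overlap between the groups included several that were higher in LDC females without passing the adjusted test. Gmppb, an enzyme that makes GDP-mannose for glycosylation, measured 344, 256 and 572 in control and 950.1, 764 and 1122 in LDC females, a log2 difference of 1.34 (adjusted p = 0.116). Arfgap3, which regulates transport from the Golgi, stood at 1.07 (adjusted p = 0.128), and Gas1, a growth arrest protein, at 1.04 (adjusted p = 0.132). Epha4, a receptor kinase for ephrins, measured 70.8, 28.9 and 23.7 in control and 216, 123 and 150.3 in LDC females, and since 2 of these controls lie under the filter signal of 48.6, no fold is given.

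Another 4 genes met this rule through a dimmer probe set. For Hspa13, a chaperone of the HSP70 family, the dimmer one stood at 1.15 (adjusted p = 0.132) and the brightest at 0.72 (adjusted p = 0.201), also with no overlap. For Aifm2, the ferroptosis suppressor FSP1, they stood at 1.41 (adjusted p = 0.086) and -0.15 (adjusted p = 0.904), and for Pid1, an adaptor linked to insulin signalling, at 1.39 (adjusted p = 0.133) and 0.08 (adjusted p = 0.892), and in both the groups overlapped for the brightest. Sec62, of the translocation machinery of the endoplasmic reticulum, stood at -0.13 (adjusted p = 0.744) for the brightest, while the dimmer one measured 61.8, 17.1 and 32.9 in control and 154, 191 and 157 in LDC females, with 2 controls under the filter signal.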
